A study of Mus musculus with 18 samples.

Results

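The comparison described here is that of tolerized with naive CD4 T cells after both had been stimulated in culture with PMA and the calcium ionophore A23187 (PI), and it rests on 6 of the 18 RNA-seq libraries of the series. Its libraries were chosen by their labels alone, 3 from tolerized mice (TPI) and 3 from control mice (NPI). All mice were Tg4-H2u, a strain whose CD4 T cells carry a transgenic T cell receptor (TCR) for a peptide of myelin basic protein. Tolerized mice had received the 4Y form of that peptide subcutaneously in repeated escalating doses, while the controls had received the PBS vehicle on the same schedule, so that every CD4 T cell population here, naive or tolerized, carried the transgenic receptor. CD4 T cells were enriched from spleen with magnetic beads rather than sorted, and the RNA was depleted of ribosomal RNA before sequencing. The remaining groups, of 3 libraries each, were used only for reference: tolerized and naive cells taken at rest (T0 and N0) and after a last injection of peptide in the animal (TAg and NAg). These were not cultured. Replicates are the separately labelled samples of a group. The p-values set a difference against the spread between replicates, which was estimated over all 6 groups and not over TPI and NPI alone. A gene said not to have passed is one that did not pass in that fit.

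The receptor on a T cell signals through a chain of kinases and adaptors at the membrane (LCK, ZAP70, LAT) to phospholipase C, which makes diacylglycerol and releases calcium. PMA stands in for diacylglycerol and switches on protein kinase C and the RAS pathway, and an ionophore lets calcium into the cell, so that PI reaches AP-1, NF-kB and NFAT without the receptor or its proximal kinases. Anergic cells are known for a block in that proximal chain, and Tr1 cells, the kind of tolerized cell obtained with repeated peptide, are known for making IL-10 with little IL-2. The comparison of TPI with NPI therefore addresses which differences in RNA between the populations were present when the proximal chain was bypassed.

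The 6 PI libraries held 14895843 to 24119489 reads assigned to genes, with a median of 15866857 in NPI and 22982619 in TPI. Values below are normalized counts, which are reads per gene divided by a library's scaled size, and a fold change is TPI over NPI on the log2 scale with its standard error (SE). A gene is said to have differed, risen or fallen when edgeR's quasi-likelihood test gave it an adjusted p below 0.05 over all 17240 tested genes, and to have been called when it also changed at least 2-fold with an average above 50 in the higher group. Values are less certain for genes whose exons overlap another gene, of which *Fosl1*, *Nab2*, *Bcl2a1b*, *Tnfrsf18*, *Il16*, *Foxp3*, *Il4* and *Ccnd3* below have the larger overlaps, since the strand and overlap settings of the counting are not stated.

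Both groups had the RNA of CD4 T cells. *Cd3e*, a signalling chain of the TCR complex, was at 4432, 4154 and 4804 in NPI and 4773, 4328 and 4462 in TPI, and *Trac*, the constant part of the TCR alpha chain, was at 6545, 6851 and 7177 in NPI and 6647, 6713 and 7516 in TPI. The libraries of the 2 groups overlapped for both genes, and the summed level of the 8 defining markers was 50329 to 56300 in NPI and 53907 to 56044 in TPI. Of the 8, 1 was higher and 3 lower in TPI (1 lower without NPI replicate 3 or TPI replicate 2). The higher marker was *Cd5* (log2 fold change 1.02, adjusted p = 8.95e-05). The lower markers were *Cd4* itself (−0.26, adjusted p = 0.0115), *Cd3d* (−0.37, adjusted p = 0.000401) and *Cd3g* (−0.32, adjusted p = 0.00711). RNA of other cells was not equal. The neutrophil markers summed to 73.9 to 192.4 in NPI and to 489.6 to 833.4 in TPI, and 9 of the 13 were higher in TPI. *Ngp*, a granule gene of immature neutrophils, was at 0, 0 and 0 in NPI and 7.27, 36.2 and 13.8 in TPI, and *Mpo*, the granule peroxidase, was at 57.2, 148 and 50.9 in NPI and 326, 306 and 530.0 in TPI (adjusted p = 0.000844). Macrophage and monocyte markers summed to 789 to 1121 in NPI and 1484 to 1838 in TPI, with 3 of 14 higher and 1 lower (0 lower without NPI replicate 1 or 3 or TPI replicate 2 or 3), although the C1q genes that define tissue macrophages were nearly absent, at 3.29 or less in each PI library. Erythroid markers summed to 183 to 248 and 389 to 617. The sums for B cells (2925 to 6045 in NPI, 3121 to 5664 in TPI) and dendritic cells (716 to 1016, 764 to 1147) overlapped between the groups, whereas CD8 and NK markers were lower in TPI (913.2 to 1393.3 against 443.5 to 666.3), with *Cd8b1* at 169.6, 136 and 147 in NPI and 46.0, 60.4 and 59.5 in TPI. In bulk RNA fewer cells of a type and less RNA per cell cannot be told apart. Each gene group below is therefore also given from a fit that carries a myeloid and an erythroid marker score as covariates. As the scores themselves do not overlap between TPI and NPI, a difference lost in that fit is not shown to come from other cells. Apart from genes given below, *Ccnb1*, *Rrm2*, *Klrk1*, *Cd55*, *Oas3*, *Emr1* and *Car2* were lower in that fit and did not pass without the scores. *Mpo* and *Ngp* passed without the scores and not in that fit (adjusted p = 0.521 and 0.248 there). Besides those marked below, the same held for genes that include *Areg*, *Atf3*, *Bcl2a1d*, *Bcl6*, *Ccr7*, *Ccr9*, *Cd3d*, *Cd3g*, *Cd4*, *Cd70*, *Cish*, *Dnajb1*, *Dnajb4*, *Dusp5*, *Foxp3*, *Il6*, *Il22*, *Jun*, *Lck*, *Mafk*, *Mcm2*, *Mcm5*, *Nfkbia*, *Nfkbie*, *Pde8a*, *Pmaip1*, *Ppp3ca*, *Socs3*, *Themis*, *Tnfaip3* and *Tnfsf14*. In all, 158 named genes lost the threshold there with their sign kept.

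Of the 17240 genes tested, 583 were called higher in TPI (3.38%) and 383 lower (2.22%), and by adjusted p alone 3138 (18.2%) were higher and 3399 (19.7%) lower. The shares of 18.2% and 19.7% are those to set beside the counts of list members higher and lower below. The median log2 fold change of all tested genes was −0.04, with 5th and 95th percentiles of −1.23 and 1.40. The plot of mean normalized counts shows that genes higher in TPI reached the wider extremes: 112 of the 583 rose at least 4-fold and 11 at least 16-fold, against 30 and 0 of the 383 that fell. Protein-coding genes made up 89.5% of those higher and 88.8% of those lower. The TPI libraries all lay above the NPI libraries for 582 of the 583 and all below for 381 of the 383, and over all tested genes they lay above for 24.1% and below for 26.4%. With the marker scores as covariates 390 genes were called higher and 323 lower.

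**Figure D1:**
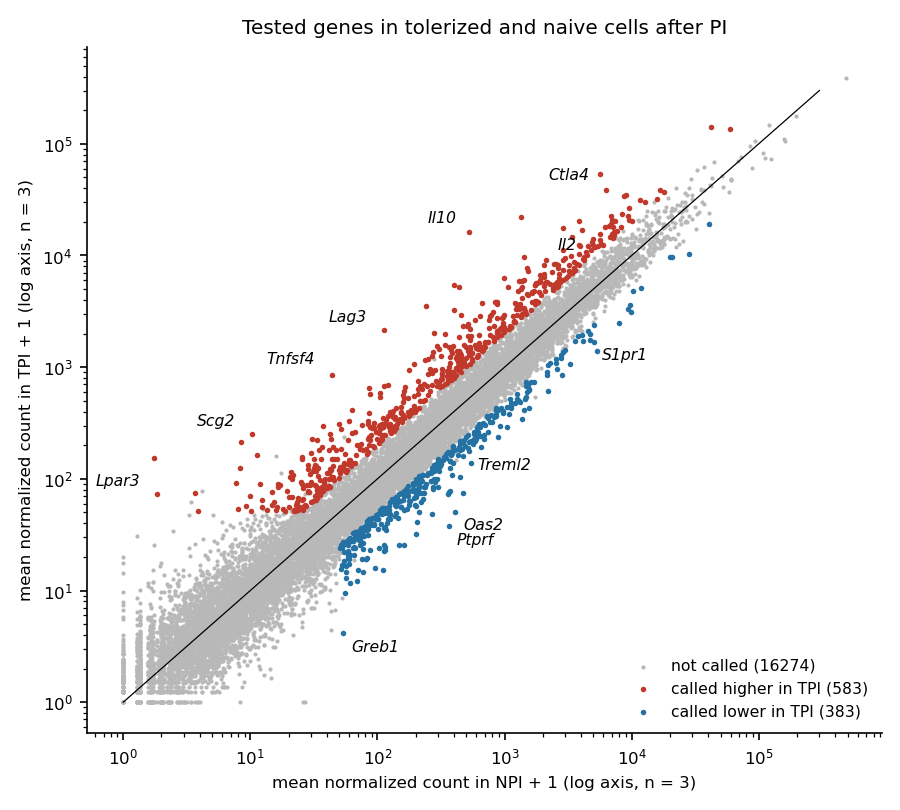
Mean normalized count plus 1 of every tested gene in the 3 NPI libraries (horizontal, log axis) and the 3 TPI libraries (vertical, log axis). The 583 genes called higher in TPI are red, the 383 called lower are blue and the other 16274 are grey, and the red points reach farther from the diagonal than the blue.

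The largest rises joined a suppressive cytokine to several genes that were barely counted in NPI. *Il10* (chr1:132916422-132921551, NCBIM37/mm9 as for all gene positions below) encodes the cytokine that defines Tr1 cells. Its normalized count was 463, 582 and 535 in NPI and 22150, 12100 and 14640 in TPI, a log2 fold change of 4.95 ± 0.27 (adjusted p = 1.04e-08). All 3 TPI libraries lay more than 16-fold above every NPI library. *Lpar3* (chr3:145883925-145949178), a receptor for lysophosphatidic acid, was at 0, 0 and 2.55 in NPI and 125, 48.3 and 41.4 in TPI. Against a floor of 3 reads in each NPI library it was at least 24-fold higher in TPI (adjusted p = 3.63e-05). *Tnfsf4* (chr1:163325581-163348337), the ligand OX40L that costimulates T cells through OX40, was at 39.5, 45.1 and 43.3 in NPI and 1003, 782 and 771 in TPI, with a log2 fold change of 4.32 ± 0.25 (adjusted p = 3.93e-10). The TPI libraries were close together and far above NPI. *Lag3* (chr6:124854379-124861723), an inhibitory receptor that binds MHC class II, was at 87.4, 117 and 129.9 in NPI and 2764, 1658 and 1996 in TPI (log2 fold change 4.26 ± 0.34, adjusted p = 5.1e-07). The groups stood well apart here too.

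*Scg2* (chr1:79431244-79436665), which encodes a protein of neuroendocrine secretory granules, was at 10.4, 9.90 and 7.64 in NPI and 414, 183 and 149 in TPI (log2 fold change 4.74, adjusted p = 6.24e-06), and *Gldc* (chr19:30172939-30249908), the glycine decarboxylase of mitochondria, was at 6.24, 8.80 and 6.79 in NPI and 170.5, 87.8 and 110.3 in TPI (4.07, 5.52e-09). *Stard13* (chr5:151840203-152036411), a GTPase-activating protein, was at 0, 5.50 and 2.55 in NPI and 107, 37.3 and 76.2 in TPI (4.75, 3.14e-07). For these 3 genes every NPI library was at 10.4 or below and TPI replicate 1 was the highest library in each. *Mmp9* (chr2:164766280-164781350), a matrix metalloproteinase stored in neutrophil granules and one of the neutrophil markers above, was at 2.08, 2.20 and 4.24 in NPI and 39.6, 45.0 and 66.8 in TPI (4.06, 0.000153). The list of 10 largest rises also held *Gm5148* (4.79) and *Gm12534*. *Gm12534* (chr3:37130255-37131391) shares 35 exonic bases with *Il21* on the opposite strand, and because the strand setting of the counting is not stated its value is uncertain. It was at 0, 2.20 and 0 in NPI and 295, 70.2 and 92.2 in TPI, at least 51-fold higher in TPI against the floor.

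The largest falls were genes of modest abundance. *Greb1* (chr12:16677421-16807692), best known as a target of the estrogen receptor, was at 59.3, 42.9 and 56.9 in NPI and 4.04, 1.10 and 4.36 in TPI, a log2 fold change of −3.93 ± 0.47 (adjusted p = 4.78e-07), and it did not pass with the marker scores in the fit (−1.39, adjusted p = 0.376). *Ptprf* (chr4:117880818-117964010), the receptor tyrosine phosphatase LAR, was at 379.7, 334 and 374 in NPI and 29.1, 36.2 and 45.0 in TPI, a log2 fold change of −3.29 ± 0.23 (adjusted p = 2.96e-09). Every TPI library was at least 7-fold below every NPI library. *Oas2* (chr5:121180342-121199862), an antiviral sensor of double-stranded RNA induced by interferon, was at 306, 435 and 469 in NPI and 42.0, 59.3 and 48.6 in TPI (−3.03 ± 0.29, adjusted p = 2.19e-06). *Acvrl1* (chr15:100958953-100975767), the BMP and TGF-beta receptor kinase ALK1, was at 196, 186 and 221 in NPI and 24.2, 28.5 and 39.9 in TPI (−2.68 ± 0.20, adjusted p = 3.31e-10).

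*G0s2* (chr1:195098355-195099382), an inhibitor of triglyceride lipase, was at 56.2, 48.4 and 57.7 in NPI and 8.89, 7.68 and 8.71 in TPI (−2.66 ± 0.34, adjusted p = 1.18e-06). *Ampd1* (chr3:102877937-102903637), AMP deaminase, was at 164, 126 and 154 in NPI and 21.0, 28.5 and 24.0 in TPI (−2.61 ± 0.26, adjusted p = 6.44e-08), and *Sp6* (chr11:96874708-96886048), a zinc finger factor that overlaps *Gm11532*, was at 174, 147 and 162 in NPI and 25.1, 28.5 and 20.3 in TPI (−2.72, adjusted p = 3.11e-10). The groups did not overlap for any of these. *Srsf12* (chr4:33295966-33320315, −2.62) and the non-coding *Gm15340* (−2.95) and *Gm11674* (−2.75) complete the 10 largest falls, and with the marker scores in the fit they did not pass, at −0.96, −1.42 and −2.77 (adjusted p = 0.559, 0.4 and 0.053), nor did *G0s2* (−2.48, 0.0639).

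**Figure D2:**
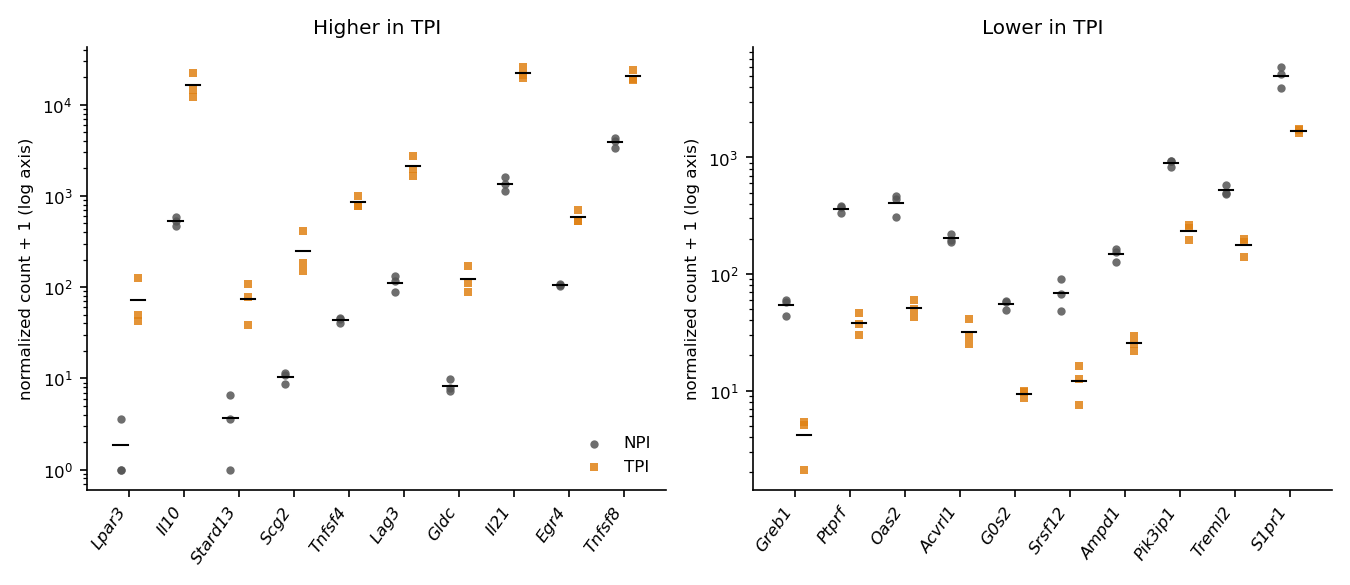
Normalized counts plus 1 (log axis) of 20 genes in each NPI and TPI library, 1 point per library, with the mean of each group as a bar. The genes that rose are on the left, with the TPI points all above the NPI points, and those that fell are on the right, with the order turned.

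The membrane-proximal machinery, which PI bypasses, differed in RNA but not in a single direction. Of its 21 members 8 were higher and 10 lower in TPI (median log2 fold change 0.00), against 18.2% and 19.7% of all tested genes, and 6 and 2 with the marker scores in the fit. *Zap70*, the kinase that binds the phosphorylated TCR complex, was at 6734, 6805 and 6741 in NPI and 15210, 13600 and 15070 in TPI (log2 fold change 1.11 ± 0.07, adjusted p = 6.74e-11). *Lcp2*, the adaptor SLP-76, rose by 1.12 ± 0.08 (adjusted p = 3.38e-10). *Grap2*, the adaptor GADS that holds SLP-76 to LAT, was instead lower, at 2723, 2326 and 2543 in NPI and 1096, 1162 and 1259 in TPI (−1.11 ± 0.12, adjusted p = 4.78e-07). *Malt1*, the protease of the complex that links protein kinase C to NF-kB, was at 4521, 5521 and 4978 in NPI and 14830, 13790 and 13620 in TPI (1.49 ± 0.10, adjusted p = 1.24e-10), and *Bcl10*, its filament-forming adaptor, rose by 0.89 ± 0.08 (adjusted p = 3.72e-09). *Themis*, a regulator of TCR signal strength, was lower (−0.82, adjusted p = 0.000351), and *Fyn* and *Lck*, the SRC-family kinases at the top of the chain, were higher by small amounts (0.44 and 0.28).

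Of 23 genes for brakes on TCR signalling and enzymes linked to anergy, 10 were higher and 7 lower (median 0.11; 7 and 4 with the marker scores in the fit). Their changes split paralogs. *Ubash3b*, the phosphatase STS-1 that dephosphorylates ZAP70, was at 1313, 1329 and 1265 in NPI and 6395, 5468 and 5955 in TPI (log2 fold change 2.19 ± 0.14, adjusted p = 3.12e-09). Its relative *Ubash3a*, STS-2, was at 556, 441 and 568 in NPI and 198, 217 and 218 in TPI (−1.31 ± 0.10, adjusted p = 5.81e-10). For each of the pair the TPI and NPI libraries were fully apart, in opposite directions. *Cblb*, a ubiquitin ligase that anergic cells are known to need, was at 7272, 7205 and 7058 in NPI and 15880, 14110 and 13350 in TPI (1.01 ± 0.10, adjusted p = 1.43e-08). *Sla*, the adaptor SLAP that leads TCR chains to degradation, rose by 1.16 ± 0.09 (adjusted p = 3.43e-10), as did *Ptpn22*, a phosphatase for SRC-family kinases (0.94 ± 0.09, adjusted p = 3.88e-08). *Sit1*, a transmembrane adaptor that recruits SHP2, fell, from 417, 387 and 414 in NPI to 147, 199 and 200.4 in TPI. The anergy ligases *Itch* (−0.01, adjusted p = 0.955) and *Rnf128* (1.08, adjusted p = 0.0593) did not pass.

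Feedback regulators of MAP kinases were more often higher than lower, 12 against 4 of 20 (median 0.44; 8 and 0 with the marker scores in the fit). *Spry1*, a sprouty protein that restrains RAS signalling, was at 5568, 5438 and 5749 in NPI and 62090, 50200 and 47960 in TPI (log2 fold change 3.26 ± 0.29, adjusted p = 1.39e-06). The dual-specificity phosphatases *Dusp14* at 259, 274 and 263 in NPI and 1344, 1127 and 1302 in TPI (2.25, adjusted p = 1.21e-11) and *Dusp4* at 1972, 2043 and 2151 in NPI and 7461, 6365 and 6535 in TPI (1.72, adjusted p = 5.3e-08) lay well above NPI in all TPI libraries. *Dusp16*, which acts on JNK, rose by 1.47 ± 0.11. *Dusp10*, which acts on JNK and p38, was the exception among the larger changes at 8614, 6376 and 8815 in NPI and 2588, 2444 and 2467 in TPI (−1.67 ± 0.28, adjusted p = 0.000402), with the groups again apart, and it did not pass with the marker scores in the fit (−1.10, adjusted p = 0.274). *Dusp5*, an ERK phosphatase of the nucleus, was also lower (−0.64, adjusted p = 0.00558).

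Among the NF-kB subunits and inhibitors 9 of 14 were higher and 2 lower (median 0.70; 7 and 0 with the marker scores in the fit), and all 5 subunits rose. The count of lower genes was 1 without NPI replicate 1 or 3 or TPI replicate 1 or 2, and 0 without TPI replicate 3. *Nfkb1* was at 16980, 19620 and 17540 in NPI and 37040, 36100 and 36950 in TPI (1.02 ± 0.09, adjusted p = 4.4e-09), *Nfkb2* at 5175, 5593 and 5554 in NPI and 12640, 11550 and 12460 in TPI (1.17 ± 0.08, adjusted p = 1.51e-10) and *Relb*, the partner of the NFKB2 product in the alternative pathway, at 2393, 2883 and 2802 in NPI and 7132, 6356 and 6908 in TPI (1.34 ± 0.08, adjusted p = 1.88e-11). No TPI library came near the range of NPI for these. *Rela* rose by 0.94 ± 0.07 and *Rel* by 0.64 ± 0.08. Of the inhibitors, *Nfkbib* rose (0.97 ± 0.08, adjusted p = 8.33e-10) and so did *Nfkbie* (0.63). The 2 that were lower are the early feedback inhibitors: *Nfkbia*, IkB-alpha, at 38650, 37280 and 36240 in NPI and 32400, 27700 and 26830 in TPI (−0.37, adjusted p = 0.00962, but adjusted p = 0.0537 without TPI replicate 3), and *Tnfaip3*, the ubiquitin-editing enzyme A20, at 133100, 114100 and 125300 in NPI and 74880, 74420 and 70230 in TPI (−0.76, adjusted p = 0.0321, but adjusted p = 0.0872 without TPI replicate 3). Their groups did not overlap, yet neither gene passed on leaving out that library.

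For NFAT and calcineurin 3 of 11 were higher and 1 lower, against 18.2% and 19.7% of all tested genes. The median was −0.05, and 3 were higher and 0 lower with the marker scores in the fit. The count of lower genes was 2 without NPI replicate 2 and 0 without TPI replicate 1. *Nfatc1*, the family member that NFAT itself induces, was at 5840, 7429 and 7250 in NPI and 18670, 18600 and 20080 in TPI (1.48 ± 0.09, adjusted p = 2.61e-11). *Nfat5*, the calcium-independent member that answers osmotic stress, was at 7640, 8828 and 8613 in NPI and 26190, 23260 and 20940 in TPI (1.49 ± 0.09, adjusted p = 8.92e-12), and *Rcan1*, a calcineurin inhibitor induced by NFAT, was at 104, 119 and 85.7 in NPI and 326, 248 and 276 in TPI (1.47 ± 0.16, adjusted p = 7.69e-08). *Nfatc2* (−0.09, adjusted p = 0.548) and *Nfatc3* (0.13, adjusted p = 0.364), the members already present in resting T cells, did not pass, and the fall of the calcineurin subunit *Ppp3ca* (−0.43) was lost on leaving out a library (adjusted p = 0.0577 without TPI replicate 1).

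The AP-1 family gave 6 higher and 2 lower of 14 (median 0.26; 4 and 0 with the marker scores in the fit), and 1 lower without NPI replicate 1 or 3 or without any of the TPI replicates. The classic immediate-early members were not among those higher. *Fos* was at 113300, 106900 and 118600 in NPI and 78730, 73180 and 71370 in TPI (−0.60, adjusted p = 0.0885), with TPI below NPI in every library but short of the threshold, and *Fosb* (0.19, adjusted p = 0.825) and *Junb* (0.14, adjusted p = 0.734) did not pass. *Jun* was lower (−0.51, adjusted p = 0.0396, but adjusted p = 0.12 without NPI replicate 1), and so was *Mafk* (−0.31, adjusted p = 0.00274). *Jund* (0.05), *Batf3* (0.26) and *Maff* (0.25) did not pass (adjusted p = 0.755, 0.792 and 0.228). *Fosl2*, FRA-2, was at 7736, 9606 and 8943 in NPI and 34760, 31920 and 35210 in TPI (1.96 ± 0.09, adjusted p = 2.59e-13), and no library of a group came near the other group. *Atf3*, a stress-induced repressor, was at 3567, 4039 and 4032 in NPI and 13390, 12380 and 11640 in TPI (1.68 ± 0.20, adjusted p = 1.93e-05), and *Batf*, which pairs with JUN and IRF4 at composite sites, was at 416, 512 and 384 in NPI and 1390, 722 and 869.7 in TPI (1.19 ± 0.20, adjusted p = 0.00024). *Mafg* (1.09) and *Fosl1* (0.95) rose as well.

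In the EGR, NAB and NR4A list 7 of 9 were higher and 0 lower (median 0.84; 5 and 0 with the marker scores in the fit). *Egr4* was at 104, 107 and 103 in NPI and 696, 533 and 535 in TPI (2.49 ± 0.21, adjusted p = 6.44e-09), and *Egr2*, an inducer of anergy genes, at 14540, 17860 and 17610 in NPI and 40280, 37190 and 37080 in TPI (1.20 ± 0.19, adjusted p = 0.000143, with 0.95 and 0.131 in the fit with marker scores). The EGR corepressor *Nab2* rose by 0.90 ± 0.09 (adjusted p = 4.75e-08) and *Nab1* by 0.68. Of the orphan nuclear receptors *Nr4a3* was at 50930, 66020 and 61690 in NPI and 139000, 132800 and 139400 in TPI (1.20 ± 0.14, adjusted p = 2.27e-06) and *Nr4a2* at 20620, 23310 and 23010 in NPI and 40540, 40480 and 38470 in TPI (0.84 ± 0.07, adjusted p = 5.84e-09), while *Nr4a1*, which encodes NUR77, was at 193200, 190400 and 200200 in NPI and 177500, 175400 and 179200 in TPI and did not pass (−0.13, adjusted p = 0.715). *Egr1* did not pass either (0.18, adjusted p = 0.242).

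The first outputs of the pathway that the study listed were not lower in TPI at the threshold without the marker scores. Of the 8 immune response genes, a list the study chose on samples of this series and so no independent evidence of direction, 3 were higher, 0 lower and 5 did not pass (median −0.01; 2 and 1 with the marker scores in the fit). *Il2*, the growth factor whose loss marks anergy, was at 3878, 4870 and 4015 in NPI and 6227, 8577 and 10170 in TPI, higher in every TPI library (log2 fold change 0.97 ± 0.23, adjusted p = 0.0044). It did not pass with the marker scores in the fit (0.64, adjusted p = 0.441). *Nfkb1* and *Nr4a3* are given above. *Tnf* was at 13840, 16660 and 16970 in NPI and 12610, 13930 and 15600 in TPI and *Cd40lg*, the ligand that licenses B cells, was at 8750, 10720 and 9265 in NPI and 9796, 10100 and 10200 in TPI, and in both the groups overlapped (−0.17 and 0.07, adjusted p = 0.395 and 0.746). *Il3* was at 32.2, 60.5 and 37.4 in NPI and 28.3, 19.8 and 28.3 in TPI (−0.73, adjusted p = 0.114), and the cytokine *Csf2* (−0.14, adjusted p = 0.791) and the chemokine *Ccl1* (−0.08, adjusted p = 0.936) did not pass either. With the marker scores in the fit *Csf2* was lower (−1.90, adjusted p = 0.0309), the 1 lower gene of that fit.

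All 10 tolerance-associated genes were higher in TPI and 9 were called, against 18.2% and 3.38% of all tested genes. The median was 2.55, and 7 were higher with the marker scores in the fit. This list too was chosen by the study on samples of the series. Apart from *Il10* and *Lag3*, *Il21*, a cytokine that helps B cells, was at 1118, 1601 and 1346 in NPI and 25800, 21000 and 19750 in TPI (4.03 ± 0.30, adjusted p = 2.8e-07, with 35 exonic bases shared with *Gm12534*), and *Maf*, a factor that drives *Il10*, was at 403, 396 and 405 in NPI and 4385, 2515 and 2885 in TPI (3.02 ± 0.33, adjusted p = 1.09e-05; it overlaps *Gm15655*). *Ctla4*, which takes CD28 ligands from antigen-presenting cells, was at 5715, 6285 and 6970 in NPI and 44490, 34420 and 36040 in TPI (2.60 ± 0.19, adjusted p = 1.05e-07). *Pdcd1*, PD-1, was at 469, 539.9 and 546 in NPI and 2395, 2208 and 2656 in TPI (2.22 ± 0.17, adjusted p = 9.64e-08). In all of these the lowest TPI library was several-fold above the highest NPI library. *Tigit* (2.30), *Havcr2* (1.70) and *Dusp6* (0.68) passed without the scores but not with the marker scores (1.28, 0.73 and 0.48, adjusted p = 0.186, 0.56 and 0.469).

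Among 18 tested helper cytokines 4 were higher and 3 lower, near the 18.2% and 19.7% of all tested genes. The median was −0.16, and 0 were higher and 3 lower with the marker scores in the fit. The count of higher genes was 1 without NPI replicate 1, without NPI replicate 3 or without TPI replicate 3. It was 2 without NPI replicate 2 or TPI replicate 2. *Il22*, a cytokine that acts on epithelia, was at 197, 229.8 and 148 in NPI and 179, 479.6 and 688 in TPI with the groups overlapping (1.24, adjusted p = 0.0374, but adjusted p = 0.15 without TPI replicate 3). *Areg*, a growth factor ligand of the EGF receptor (0.99, adjusted p = 0.158 without TPI replicate 3), and *Il6* (−0.77, adjusted p = 0.161 without TPI replicate 1) were lost in the same way. *Il16*, which is made as the precursor of a CD4 ligand, was at 2769, 2706 and 3204 in NPI and 1393, 1387 and 1294 in TPI (−1.09 ± 0.13, adjusted p = 3.24e-06), with every TPI library far below the lowest NPI library. *Ltb*, a membrane lymphotoxin chain, was at 1324, 1025 and 1115 in NPI and 618, 704 and 855 in TPI (−0.67 ± 0.14, adjusted p = 0.00113), and *Tgfb1* was higher by 0.37 ± 0.08 (adjusted p = 0.000696). With the marker scores in the fit neither passed (−0.85 and 0.25, adjusted p = 0.0636 and 0.308). *Il17f* and *Osm* did not pass without the scores (−0.34 and −0.26, adjusted p = 0.541 and 0.144). They were lower with the scores (−2.27 and −0.75, adjusted p = 0.0484 and 0.0272). The effector cytokines that name helper subsets did not pass: *Ifng* was at 3945, 6032 and 4871 in NPI and 11260, 6461 and 7066 in TPI (0.74, adjusted p = 0.142), *Il4* had a log2 fold change of −0.72 (adjusted p = 0.0642; −0.92 and 0.0331 without NPI replicate 1), and that of *Il17a* was −0.07 (adjusted p = 0.903).

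Of 12 chemokine ligands 1 was higher and 1 lower, against 18.2% and 19.7% of all tested genes. The median was 0.30, and 0 were higher and 2 lower with the marker scores in the fit. Without NPI replicate 2 the count of higher genes was 2, where *Ccl3* was added (0.70, adjusted p = 0.0311). Without NPI replicate 2, TPI replicate 1 or TPI replicate 2 the count of lower genes was 0. *Ccl4*, which attracts effector T cells and monocytes, was at 3926, 6560 and 4592 in NPI and 10120, 8631 and 9578 in TPI (0.91 ± 0.20, adjusted p = 0.00276, with 0.38 and 0.575 in the fit with marker scores). *Ccl9* was lower (−0.47, adjusted p = 0.179 without NPI replicate 2), and *Ccl5* (0.22, adjusted p = 0.682) and *Xcl1* (0.49, adjusted p = 0.333) did not pass. *Cxcl10* did not pass either (−0.82, adjusted p = 0.0735), but was lower with the marker scores in the fit (−2.03, adjusted p = 0.00769).

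The membrane-bound ligands of the TNF superfamily were higher more often: 6 of 9 rose and 0 fell (median 0.83; 3 and 0 with the marker scores in the fit). Beside *Tnfsf4*, *Tnfsf8*, the CD30 ligand, was at 3334, 4276 and 4036 in NPI and 23760, 18770 and 18890 in TPI (2.40 ± 0.22, adjusted p = 1.22e-06), and *Tnfsf9*, the 4-1BB ligand, was at 228, 307 and 261 in NPI and 1005, 755 and 869 in TPI (1.73 ± 0.14, adjusted p = 1.02e-09). *Tnfsf14*, LIGHT, rose by 0.83 ± 0.18 (adjusted p = 0.00199). *Cd70*, also among the 6, was near the floor, with at most 1 read in each NPI library and a mean of 3.07 in TPI. Its adjusted p was 0.0384, but 0.114 without NPI replicate 1, 0.106 without NPI replicate 2 and 0.144 without TPI replicate 1. *Fasl*, the death ligand, was at 595, 775 and 676 in NPI and 999, 1088 and 1169 in TPI (0.67 ± 0.12, adjusted p = 9.54e-05, with 0.65 and 0.091 in the fit with marker scores), with all TPI libraries above NPI.

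Costimulatory receptors were also more often higher than lower. Of 16 costimulatory receptors 11 were higher and 2 lower (median 0.78; 8 and 2 with the marker scores in the fit). *Tnfrsf4*, the OX40 that OX40L binds, was at 774, 924 and 859.9 in NPI and 4122, 3399 and 4030 in TPI (2.18 ± 0.15, adjusted p = 2.24e-08), and *Tnfrsf18*, GITR, rose by 1.29 ± 0.15. *Icos*, an inducible relative of CD28, was at 2146, 2512 and 2451 in NPI and 7691, 6459 and 7032 in TPI (1.57 ± 0.14, adjusted p = 2.1e-07), whereas *Cd28* itself was at 24860, 25460 and 27680 in NPI and 28000, 26650 and 23450 in TPI, with the groups overlapping (0.00, adjusted p = 0.995). The receptors for TNF moved apart: *Tnfrsf1b*, TNFR2, was at 6104, 7461 and 7177 in NPI and 22600, 21520 and 23740 in TPI (1.71 ± 0.12, adjusted p = 2.34e-09), and *Tnfrsf1a*, the TNFR1 with a death domain, was at 1602, 1724 and 1770 in NPI and 732, 739.8 and 754 in TPI (−1.20 ± 0.09, adjusted p = 4.43e-10). The other gene lower was *Cd226*, DNAM-1, which competes with TIGIT for ligand (−0.78 ± 0.11, adjusted p = 3.16e-06). *Slamf1* (1.26) and *Cd5* (1.02) were higher.

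Of 17 other inhibitory receptors and ectoenzymes 11 were higher and 2 lower (median 0.77; 3 and 1 with the marker scores in the fit), and 1 lower without NPI replicate 3 or TPI replicate 2. *Nt5e*, CD73, the ectoenzyme that turns AMP into adenosine, was at 336, 429.9 and 542 in NPI and 5011, 5477 and 5130 in TPI (3.57 ± 0.38, adjusted p = 7.7e-06, with 2.32 and 0.0818 in the fit with marker scores). *Cd200* was at 437, 449.7 and 433 in NPI and 2012, 1808 and 1771 in TPI (2.08, adjusted p = 7.72e-06) and *Cd160* at 70.7, 85.8 and 93.4 in NPI and 226, 319 and 372 in TPI (1.87, adjusted p = 1.09e-05, with 1.33 and 0.0779 in the fit with marker scores). *Btla*, the inhibitory partner of HVEM, was at 3841, 4849 and 4493 in NPI and 11510, 10960 and 9973 in TPI (1.30 ± 0.10, adjusted p = 6.5e-10). *Lilrb4* (1.59), a receptor that myeloid cells also carry and that overlaps *Gp49a*, did not pass with the marker scores in the fit (0.06, adjusted p = 0.95). *Lair1*, a collagen receptor, fell, from 87.4, 104 and 96.8 to 39.6, 40.6 and 47.9 (−1.16, adjusted p = 0.00204).

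Transcription factors that set T cell lineages were mostly higher. Of 26 tested, 17 rose and 4 fell (median 0.78; 8 and 4 with the marker scores in the fit). *Ahr*, the aryl hydrocarbon receptor that partners MAF at *Il10* and *Il21*, was at 882, 1202 and 907 in NPI and 6702, 5904 and 6216 in TPI (2.65 ± 0.19, adjusted p = 1.12e-07). *Zeb2* was at 1179, 1618 and 1297 in NPI and 7059, 5528 and 5301 in TPI (2.13 ± 0.21, adjusted p = 3.03e-06) and *Tbx21*, T-bet, at 1108, 1533 and 1177 in NPI and 5731, 4333 and 4402 in TPI (1.92 ± 0.21, adjusted p = 6.24e-06). *Rbpj*, the nuclear effector of Notch, was at 3558, 4147 and 3885 in NPI and 11670, 10040 and 9408 in TPI (1.43 ± 0.08, adjusted p = 8.89e-12). Each TPI library was above 2 times every NPI library in these 4. *Rora* rose by 1.37 ± 0.15, *Bcl6*, the factor of follicular helper cells, by 0.69 ± 0.14, and *Prdm1*, BLIMP-1, its antagonist, by 1.20 ± 0.19 (adjusted p = 0.000154, with 0.84 and 0.175 in the fit with marker scores). *Ets1* (−0.51), *Ets2* (−0.78) and *Ikzf1* (−0.59), which is IKAROS, fell.

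Genes of regulatory T cells gave 12 of 16 higher and 0 lower (median 1.27), but 4 with the marker scores in the fit. *Foxp3*, which defines these cells, was at 386, 359.6 and 395 in NPI and 788, 779 and 1118 in TPI (1.24, adjusted p = 0.0345), with TPI above NPI in each library, though the call was lost on leaving out a library (adjusted p = 0.115 without TPI replicate 3). *Nrp1*, a semaphorin co-receptor, was at 286, 322 and 213 in NPI and 1664, 1120 and 1306 in TPI (2.33 ± 0.37, adjusted p = 0.000264) and *Ikzf2*, HELIOS, at 1882, 2011 and 1785 in NPI and 7787, 6119 and 6320 in TPI (1.83 ± 0.31, adjusted p = 0.000365), and with the marker scores they were at 1.78 and 1.20 (adjusted p = 0.141 and 0.196). *Socs2* was at 77.0, 81.4 and 91.7 in NPI and 381, 291 and 316 in TPI (1.98 ± 0.18, adjusted p = 7.34e-09). Several genes of this signature did not pass, among them *Gpr83* (adjusted p = 0.801), *Lrrc32*, which encodes GARP (adjusted p = 0.638), and *Ikzf4*, EOS (adjusted p = 0.913).

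Follicular helper genes were higher in 12 of 14 and lower in 1 (median 1.83; 9 and 1 with the marker scores in the fit), with 2 lower without NPI replicate 1, and the list shares *Il21*, *Maf*, *Pdcd1*, *Icos*, *Cd200*, *Btla* and *Bcl6* with those above. *Angptl2*, a secreted angiopoietin-like protein, was at 190.4, 272 and 255 in NPI and 4381, 2731 and 3421 in TPI (3.88 ± 0.29, adjusted p = 2.32e-07). *Cxcr5*, the receptor that leads cells to B cell follicles, was at 356, 476 and 527 in NPI and 3690, 2468 and 2566 in TPI (2.68 ± 0.36, adjusted p = 7e-05, with 2.13 and 0.0668 in the fit with marker scores). *Slamf6* was at 769, 831 and 856 in NPI and 2258, 2338 and 2362 in TPI (1.50, adjusted p = 3.77e-07), while the adaptor that SLAM receptors use, *Sh2d1a*, which encodes SAP, was lower (−0.66 ± 0.14, adjusted p = 0.000529).

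Genes of naive identity and homing were more often lower than higher. Of 22, 13 were lower and 2 higher (median −0.40; 8 and 2 with the marker scores in the fit). *Lef1*, which with TCF1 holds the naive state, was at 10130, 9412 and 10230 in NPI and 3082, 3266 and 2984 in TPI (−1.67 ± 0.08, adjusted p = 6.93e-13), and *Tcf7*, which encodes TCF1, was at 11190, 9822 and 11270 in NPI and 6261, 5859 and 6009 in TPI (−0.83 ± 0.08, adjusted p = 2.68e-08). *S1pr1*, the receptor for leaving lymphoid tissue, was at 5163, 3977 and 5955 in NPI and 1754, 1607 and 1707 in TPI (−1.57 ± 0.11, adjusted p = 2.21e-09). In each case all TPI libraries were well below all NPI libraries. *Klf2*, the factor that drives *S1pr1*, was at 10620, 8294 and 9077 in NPI and 3501, 3377 and 3151 in TPI (−1.48 ± 0.29, adjusted p = 0.00134, with −1.51 and 0.175 in the fit with marker scores). *Treml2* (−1.58) and *Satb1*, a chromatin organizer (−1.09), were lower, and so was *Ccr7* by a smaller amount (−0.40, adjusted p = 0.00262). The genes higher were *Il6st*, the signalling chain gp130 (1.13 ± 0.08), and *Foxp1* (0.45), and *Il7r* did not pass (0.32, adjusted p = 0.0564).

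Receptors for migration and cytokines were more often higher than lower in TPI. Of 14 chemokine receptors 7 were higher and 1 lower (median 0.70), 4 were higher without NPI replicate 1, NPI replicate 3 or TPI replicate 3, and 0 with the marker scores in the fit. The gene lower was lost without NPI replicate 3, TPI replicate 1 or TPI replicate 2. *Cxcr3*, which brings T cells to inflamed tissue, was at 412, 519 and 476 in NPI and 2441, 1991 and 2580 in TPI (2.32 ± 0.29, adjusted p = 3.45e-05, with 1.63 and 0.0872 in the fit with marker scores), and the gut-homing receptor *Ccr9* was lower (−1.54, adjusted p = 0.0907 without TPI replicate 1). Of 23 cytokine receptor chains 9 were higher and 3 lower (median 0.24; 3 and 2 with the marker scores in the fit). The chains of the IL-2 receptor *Il2ra*, at 3946, 5089 and 4462 in NPI and 13080, 11380 and 11730 in TPI (1.42 ± 0.21, adjusted p = 0.000112), and *Il2rb* (1.57 ± 0.26, adjusted p = 0.000321, with 1.02 and 0.195 in the fit with marker scores) rose. *Il1r2*, a decoy receptor that neutrophils also carry (1.83, adjusted p = 0.000695), had 0.10 with the marker scores (adjusted p = 0.954). The 2 chains of the interferon-gamma receptor went opposite ways: *Ifngr2*, the signalling chain, was at 2603, 2866 and 2973 in NPI and 759, 913 and 853 in TPI (−1.74 ± 0.13, adjusted p = 2.94e-09), and *Ifngr1*, the ligand-binding chain, was at 1978, 2099 and 2243 in NPI and 3774, 3836 and 3769 in TPI (0.85 ± 0.16, adjusted p = 0.000598). With the marker scores in the fit *Ifngr2* still passed (−1.70, adjusted p = 0.00083) and *Ifngr1* did not (0.55, 0.303).

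The type I interferon response is switched on by a complex that holds STAT2 and IRF9, which binds a response element in the promoters of antiviral genes, and it is kept up by IRF7. Of 28 interferon response genes 17 were lower in TPI and 4 higher, 2 of the latter without NPI replicate 1 (median log2 fold change −0.68 against −0.04 over all tested genes; 19 and 0 with the marker scores in the fit). Called genes were 9 lower and 2 higher, against 2.22% and 3.38% of all tested genes, and the libraries of TPI lay fully below those of NPI for 20 of the 28 and fully above for 4, against 26.4% and 24.1%. To show the site that interferon acts through, the promoters of 4 lower members that hold it and that of *Oas1a*, which was higher, are given with the core of the interferon-stimulated response element in capitals. They are the 250 bases before the start in RefSeq (GRCm38.p6), read along the strand of the gene, and *Isg15*, *Irgm1* and *Oas1a* lie on the minus strand.

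*Isg15*, chr4:156200819-156201068: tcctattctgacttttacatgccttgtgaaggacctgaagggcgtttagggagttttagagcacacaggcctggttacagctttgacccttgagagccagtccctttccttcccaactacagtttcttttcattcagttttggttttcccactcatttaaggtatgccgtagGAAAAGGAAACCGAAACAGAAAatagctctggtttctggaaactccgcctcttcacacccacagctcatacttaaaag
*Irgm1*, chr11:48871421-48871670: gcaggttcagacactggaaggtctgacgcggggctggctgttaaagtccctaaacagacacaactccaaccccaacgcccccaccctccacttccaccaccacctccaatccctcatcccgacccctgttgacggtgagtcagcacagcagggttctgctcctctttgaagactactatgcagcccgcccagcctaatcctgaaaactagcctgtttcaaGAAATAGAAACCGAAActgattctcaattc
*Igtp*, chr11:58199306-58199555: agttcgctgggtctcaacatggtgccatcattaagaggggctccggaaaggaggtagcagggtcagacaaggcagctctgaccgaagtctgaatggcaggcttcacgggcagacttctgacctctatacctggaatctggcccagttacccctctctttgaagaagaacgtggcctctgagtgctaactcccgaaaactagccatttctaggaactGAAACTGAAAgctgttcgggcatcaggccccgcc
*Stat2*, chr10:128270248-128270497: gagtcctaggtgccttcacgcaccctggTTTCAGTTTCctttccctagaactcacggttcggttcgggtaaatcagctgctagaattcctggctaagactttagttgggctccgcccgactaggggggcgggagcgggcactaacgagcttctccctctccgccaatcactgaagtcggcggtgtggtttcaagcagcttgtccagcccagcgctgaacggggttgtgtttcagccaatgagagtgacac
*Oas1a*, chr5:120907526-120907775: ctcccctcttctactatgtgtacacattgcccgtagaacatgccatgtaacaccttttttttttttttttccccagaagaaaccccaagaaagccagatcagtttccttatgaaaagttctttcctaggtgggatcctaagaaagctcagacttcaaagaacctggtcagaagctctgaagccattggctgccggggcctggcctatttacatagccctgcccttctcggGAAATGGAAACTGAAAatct

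The core was searched on both strands as GAAA, any 2 bases and GAAA. Its first bases lay 78, 72 and 66 bases before the start of *Isg15*, which makes an ubiquitin-like modifier, 30 and 24 before that of *Irgm1*, 34 before that of *Igtp*, 222 before that of *Stat2* and 20 and 14 before that of *Oas1a*, so that matches in *Isg15*, *Irgm1* and *Oas1a* overlap each other. The core was in 978 of the 32851 promoters of the table (2.98%) and in 342 of the 10163 of tested genes (3.37%). Of interferon response genes with a promoter in the table it was in 5 of 10 that were lower, 3 of 4 that were higher and 5 of 6 that did not pass, which is to say in members of each kind. Over all called genes it was in 11 of 383 higher and 8 of 243 lower with a promoter (2.87% and 3.29%).

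Of the antiviral effectors and sensors beside *Oas2*, *Usp18*, a protease that removes ISG15, was at 240.3, 221 and 219 in NPI and 54.1, 76.8 and 62.4 in TPI (−1.83 ± 0.29, adjusted p = 0.000171), *Oasl2* at 89.5, 131 and 129.9 in NPI and 26.7, 43.9 and 30.5 in TPI (−1.82, adjusted p = 0.00325) and *Ifit2*, which binds foreign RNA, at 246, 278 and 302 in NPI and 92.9, 103 and 102 in TPI (−1.47 ± 0.19, adjusted p = 1.3e-05). None of these genes had overlapping groups. *Rtp4* (−1.23) and *Oasl1*, which overlaps *Gm13822* (−1.41), were lower too. *Isg15* was at 190.4, 186 and 182 in NPI and 124, 95.5 and 152 in TPI (−0.57, adjusted p = 0.0374, but adjusted p = 0.151 without TPI replicate 2). GTPases that interferon-gamma also induces were lower: *Igtp* was at 2864, 3255 and 2972 in NPI and 1711, 1564 and 1399 in TPI (−0.96 ± 0.10, adjusted p = 8.46e-08), *Irgm1* at 2144, 2658 and 2307 in NPI and 1471, 1368 and 1183 in TPI (−0.82 ± 0.12, adjusted p = 1.42e-05) and *Gbp4* at 9468, 11850 and 9410 in NPI and 5349, 5029 and 3927 in TPI (−1.10 ± 0.13, adjusted p = 2.12e-06). Some members were higher: *Gbp3* (1.07, adjusted p = 0.000731, with 0.46 and 0.466 in the fit with marker scores), *Ifih1*, the RNA sensor MDA5 (1.02, adjusted p = 0.000921, with 0.22 and 0.635 in the fit with marker scores), and *Oas1a* at 56.2, 71.5 and 64.5 in NPI and 109.9, 103 and 93.7 in TPI (0.67, adjusted p = 0.0116, but adjusted p = 0.056 without NPI replicate 1, and −0.24 with the marker scores). *Mx1* (adjusted p = 0.52) and *Gbp2* (0.842) did not pass. *Ifit1* (−1.17, adjusted p = 0.0628), *Ifit3* (−0.79, 0.305) and *Rsad2* (−0.35, 0.67) did not pass either, but were lower with the marker scores in the fit (adjusted p = 0.0294, 0.0481 and 0.0491), and *Ifit1* also without NPI replicate 1 (−1.41, adjusted p = 0.0402).

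**Figure D3:**
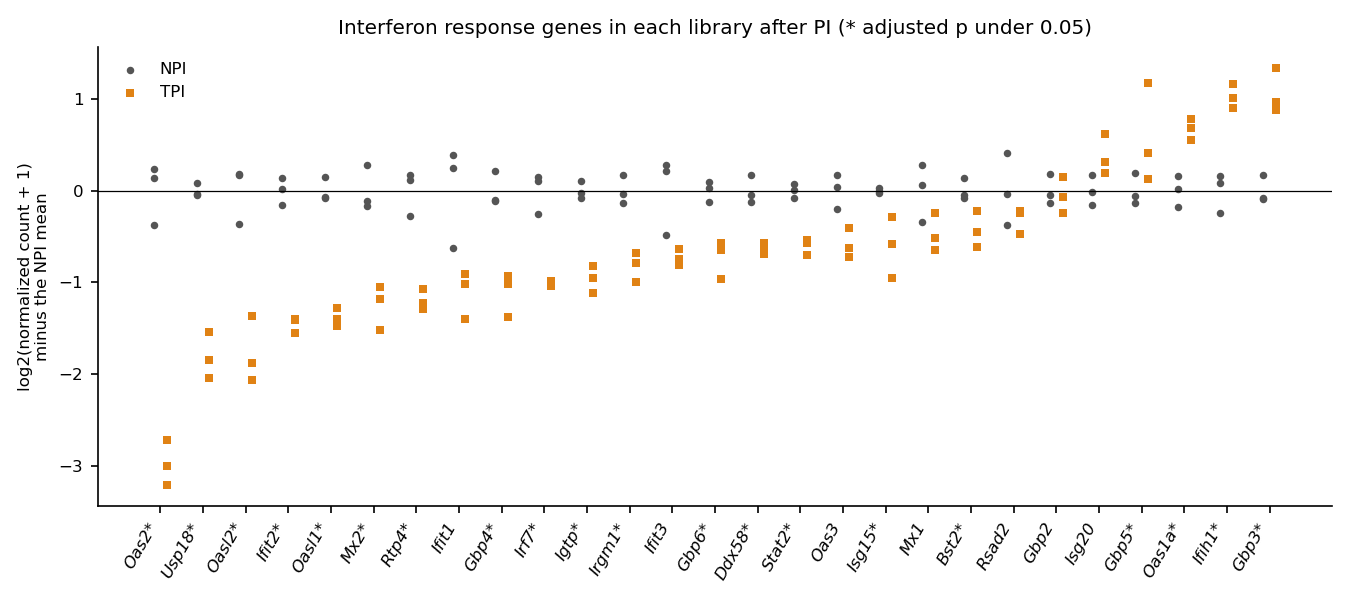
Log2 of normalized count plus 1, minus the gene's NPI mean (vertical), of interferon response genes (horizontal, in order of log2 fold change), with grey circles for the 3 NPI libraries, orange squares for the 3 TPI libraries and a star for adjusted p below 0.05. The TPI points lie fully below the NPI points for most genes, farthest for *Oas2*, and fully above for a few, among them *Gbp3*, *Ifih1* and *Oas1a*.

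The regulators of this response moved with it in part. *Irf1*, which interferon-gamma induces, was at 30170, 28620 and 25420 in NPI and 10340, 10690 and 9676 in TPI (−1.46 ± 0.10, adjusted p = 7.86e-11; it overlaps *Gm17334*), and *Irf7* at 707, 934 and 903 in NPI and 412, 426 and 408 in TPI (−1.03 ± 0.22, adjusted p = 0.00186). *Irf9* was lower by a smaller amount (−0.48 ± 0.09, adjusted p = 0.000144), as was *Stat2*, at 1031, 975 and 1083 in NPI and 692, 707 and 634 in TPI (−0.61 ± 0.09, adjusted p = 1.18e-05). Among the higher members, *Irf4*, the partner of BATF, was at 26120, 38000 and 34100 in NPI and 59930, 58040 and 57670 in TPI (0.84 ± 0.12, adjusted p = 1.05e-05) and *Irf8* at 3257, 4249 and 3314 in NPI and 8272, 6450 and 7493 in TPI (1.04 ± 0.25, adjusted p = 0.00438). Neither passed with the marker scores in the fit (0.57 and 0.83, adjusted p = 0.0999 and 0.249), whereas *Irf3*, which acts early in antiviral signalling, did (0.67 and, with the scores, 0.72, adjusted p = 0.00898). Of 8 IRF genes 3 were higher and 4 lower (median 0.13; 1 and 3 with the marker scores in the fit). *Ifnar1*, a chain of the type I receptor, was higher (0.56 ± 0.07, adjusted p = 1.06e-06).

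Among SOCS, CISH and STAT genes 11 of 15 were higher and 3 lower (median 0.72; 8 and 2 with the marker scores in the fit). *Stat3*, which IL-10 and IL-21 activate, was at 6538, 7691 and 6971 in NPI and 17630, 14080 and 15040 in TPI (1.14 ± 0.09, adjusted p = 4.86e-10; it overlaps *Stat5a*, which rose by 0.76), and *Stat4*, the IL-12 effector, was at 1560, 1879 and 1822 in NPI and 4093, 3480 and 3668 in TPI (1.09 ± 0.12, adjusted p = 7.24e-07). *Stat6* rose by 0.82 ± 0.08. Of the feedback inhibitors *Socs5* was at 168, 203 and 207 in NPI and 588, 522 and 527 in TPI (1.50 ± 0.12, adjusted p = 1.34e-09) and *Socs3* (0.72) and *Cish* (0.64) were higher, whereas *Socs1*, the inhibitor tied to interferon, did not pass (0.06, adjusted p = 0.709).

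Survival and death genes gave 10 of 20 higher and 5 lower (median 0.40; 7 and 1 with the marker scores in the fit), with 3 lower without NPI replicate 2, TPI replicate 1 or TPI replicate 3. *Traf1*, an NF-kB target that serves TNF receptors, was at 4288, 5182 and 5094 in NPI and 12500, 12980 and 14370 in TPI (1.45 ± 0.12, adjusted p = 5.26e-08). *Cflar*, the caspase-8 inhibitor FLIP, was at 4149, 5220 and 4975 in NPI and 11340, 11060 and 11450 in TPI (1.24 ± 0.08, adjusted p = 4.94e-11). Genes on the death side rose as well, *Pmaip1*, NOXA, by 1.29 ± 0.19 and *Fas* by 0.93 ± 0.13. *Bcl2a1b* was at 94.7, 91.3 and 75.5 in NPI and 241, 176 and 249 in TPI (1.36, adjusted p = 5.41e-07). It has near-identical copies between which reads may have been split, and the copies did not share a direction. *Bcl2a1a* was lower (−2.01, adjusted p = 0.0114, but adjusted p = 0.0757 without NPI replicate 2) and *Bcl2a1d* higher (0.50, adjusted p = 0.0195, but adjusted p = 0.0917 without NPI replicate 3). *Bbc3*, PUMA, fell from 197, 178 and 180.0 to 73.5, 122 and 112 (−0.86, adjusted p = 0.000264, with −0.89 and 0.151 in the fit with marker scores).

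MYC and biosynthesis genes were higher in 14 of 26 and lower in 3 (median 0.26; 9 and 1 with the marker scores in the fit), most by little. *Myc* itself was at 15110, 16960 and 14700 in NPI and 25320, 19970 and 18950 in TPI (0.46 ± 0.09, adjusted p = 0.000407). *Slc7a1*, an arginine transporter, was at 5843, 7346 and 6775 in NPI and 18060, 17920 and 18890 in TPI (1.46 ± 0.08, adjusted p = 5.28e-12), *Hk2*, hexokinase, was at 379, 554 and 397 in NPI and 1562, 1103 and 1376 in TPI (1.61 ± 0.17, adjusted p = 2.66e-06), and *Srm* and *Ldha* rose by 0.74 and 0.71. Of 24 cell cycle genes 4 were higher and 6 lower, near the 18.2% and 19.7% of all tested genes. Without NPI replicate 1 or TPI replicate 3 the count of higher genes was 2. The median was 0.15, and 3 were higher and 3 lower with the marker scores in the fit. *Mcm6*, a subunit of the replicative helicase, was at 758, 881 and 819 in NPI and 1709, 1731 and 1742 in TPI (1.08 ± 0.09, adjusted p = 2.06e-09), while its partners *Mcm2* (−0.43) and *Mcm5* (−0.38) and the cyclin *Ccnd3* (−0.70) were lower, and *Mki67* did not pass (0.72, adjusted p = 0.106; 0.99 and 0.048 without NPI replicate 2). Heat shock genes, given here as a sign of stress in culture, had 0 higher and 2 lower of 15 (median −0.07; 0 and 0 with the marker scores in the fit). *Hspa8* (−0.32, adjusted p = 0.104) and *Hsp90ab1* (−0.07, adjusted p = 0.763) did not pass, and *Dnajb1* (−0.61, adjusted p = 0.0949 without TPI replicate 3) and *Dnajb4* (−0.45, adjusted p = 0.0596 without TPI replicate 3) no longer passed without that library.

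Adhesion and memory molecules were higher in 18 of 25 and lower in 1 (median 1.03; 5 and 2 with the marker scores in the fit). *Cd44*, the marker of antigen-experienced T cells, was at 6261, 7508 and 7291 in NPI and 22240, 19990 and 20310 in TPI (1.57 ± 0.11, adjusted p = 4.02e-10). The integrin chain *Itgav*, which with beta 8 releases active TGF-beta, was at 3669, 4683 and 3913 in NPI and 18480, 15860 and 16040 in TPI (2.04 ± 0.11, adjusted p = 2.48e-11), and its partner *Itgb8* was at 556, 687 and 679 in NPI and 3006, 2568 and 2998 in TPI (2.16 ± 0.31, adjusted p = 0.000114, with 1.37 and 0.15 in the fit with marker scores). All TPI libraries were above 2 times every NPI library for these 3. Of other beta chains that pair with alpha V, *Itgb1* rose (1.45 ± 0.24, adjusted p = 0.00038, with 1.14 and 0.161 in the fit with marker scores), and *Itgb3* was lower, at 1256, 925 and 1195 in NPI and 381, 464 and 507 in TPI (−1.32 ± 0.23, adjusted p = 0.000425). *Ahnak* (1.76) and *Alcam* (1.73) rose. Of 13 cytotoxic granule genes 3 were higher and 1 lower, against 18.2% and 19.7% of all tested genes. The median was −0.14, and 1 was higher and 2 lower with the marker scores in the fit. *Nkg7* was at 268, 402 and 290.3 in NPI and 879.8, 707 and 767 in TPI (1.30, adjusted p = 0.000713, with 0.43 and 0.531 in the fit with marker scores). *Srgn*, the proteoglycan of granules, rose by 0.80 ± 0.09.

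Regulators of cAMP, adenosine and G-protein signals were divided, 11 of 24 higher and 8 lower (median 0.10; 4 and 6 with the marker scores in the fit). *Adora2a*, the adenosine receptor that raises cAMP and restrains T cells, was at 1424, 1641 and 1511 in NPI and 7863, 6720 and 7203 in TPI (2.25 ± 0.15, adjusted p = 1.58e-08), which goes in the same direction as *Nt5e* above. *Rgs16*, which shuts off G proteins of chemokine receptors, was at 964, 1224 and 975 in NPI and 5546, 4864 and 5317 in TPI (2.31 ± 0.22, adjusted p = 2.04e-06). Its relative *Rgs14* was at 936, 746 and 877 in NPI and 318, 413 and 402 in TPI (−1.18 ± 0.14, adjusted p = 2.38e-06). Of the phosphodiesterases that break down cAMP, *Pde3b* was lower, at 4810, 4610 and 4776 in NPI and 1672, 1892 and 1687 in TPI (−1.44 ± 0.13, adjusted p = 1.81e-07), as was *Pde4d* (−1.10), and *Pde8a* (1.47) and *Pde7a* (1.17) were higher.

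**Figure D4:**
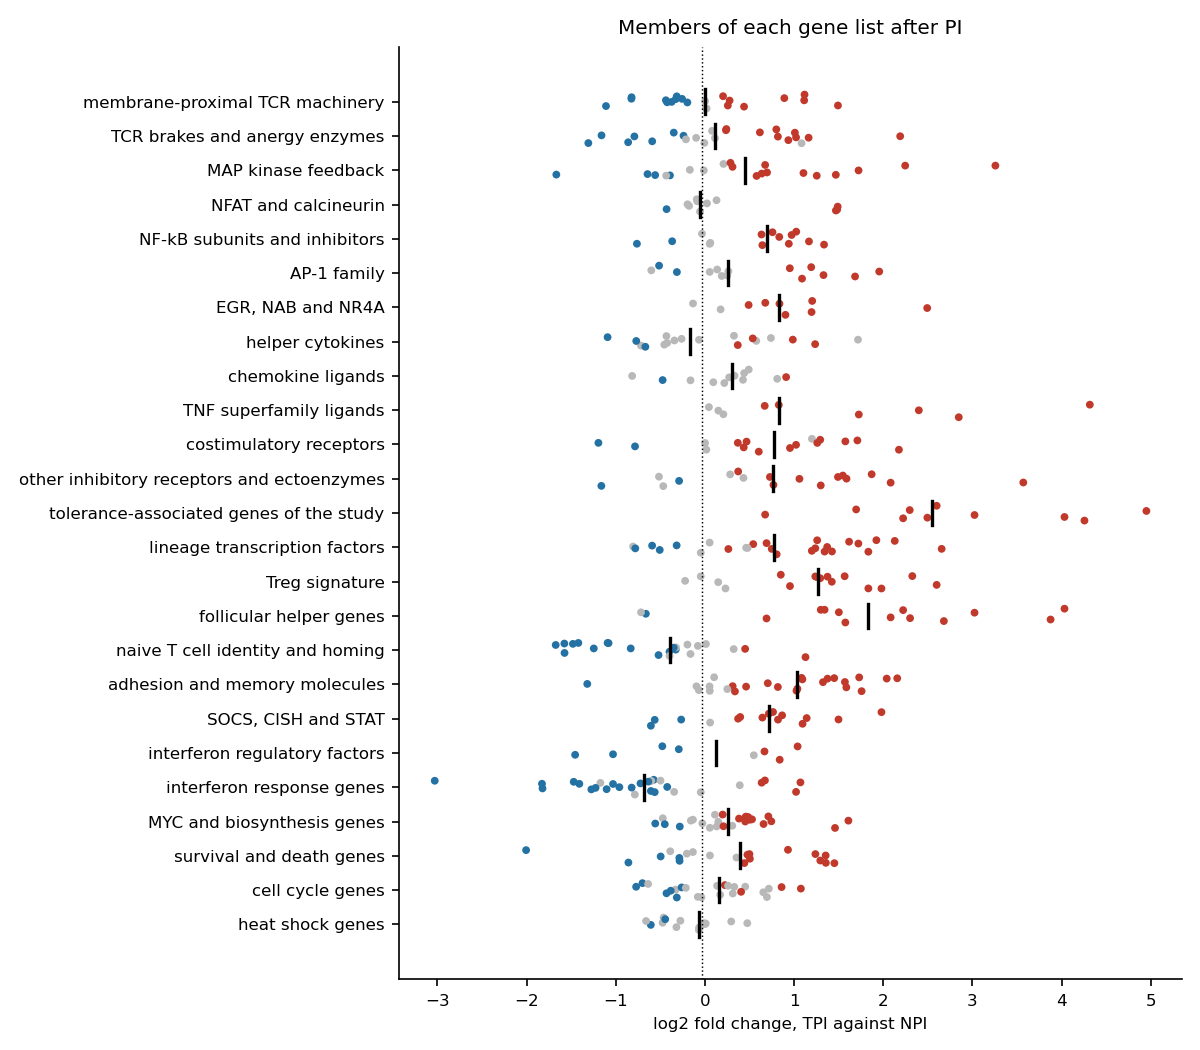
Log2 fold change of TPI over NPI (horizontal) of every tested member of 25 gene lists (rows), 1 dot per gene (red and blue for higher and lower at adjusted p below 0.05, grey for the rest), with the median of each list as a black bar and the median of all tested genes as a dotted line. Tolerance-associated, follicular helper and regulatory T cell genes lie to the right, naive identity and interferon response genes to the left, and the membrane-proximal list straddles the line.

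Promoters of the genes called higher and lower were also searched for the sites of the factors that PI activates. The AP-1 site TGANTCA was in 36 of 383 promoters of genes called higher (9.40%) and in 9 of 243 of those called lower (3.70%), against 5.72% of tested genes and 6.75% of all promoters. The NFAT core GGAAA was in 56.9% and 61.3%, against 58.9% and 55.6%. These are shares of windows that hold the letters on either strand and were not tested. The promoter of *Il21*, among the larger rises in TPI, held the NFAT core 201, 118 and 74 bases before its start and is printed from the same table, on the minus strand, with those cores in capitals.

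*Il21*, chr3:37232637-37232886: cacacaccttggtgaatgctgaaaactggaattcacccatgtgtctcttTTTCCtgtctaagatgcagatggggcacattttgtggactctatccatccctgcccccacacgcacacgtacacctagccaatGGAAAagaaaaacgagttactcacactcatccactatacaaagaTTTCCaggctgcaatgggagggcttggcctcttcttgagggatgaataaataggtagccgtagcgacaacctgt

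The gap between tolerized and naive cells after PI was then set beside the same gap at rest and after peptide in the animal, which share no library with it. Of the 583 genes called higher in TPI, 181 (31.0%, and 40.2% of the 450 called higher in T0) were also called higher in T0 than N0, 162 (27.8%, and 26.0% of 622) were also called higher in TAg than NAg, 98 were called in all 3, and 302 (51.8%) in neither other comparison. Of the 383 lower, 63 (16.4%, and 56.8% of 111) were lower at rest, 33 (8.62%, and 9.35% of 353) after peptide, and 283 (73.9%) in neither. Calls made up 2.61% higher and 0.644% lower of all tested genes at rest and 3.61% and 2.05% after peptide. Of the genes called at rest, 290 of 450 higher (64.4%) and 94 of 111 lower (84.7%) differed in the same direction after PI. Of the 353 genes called lower in TAg than NAg, 80 (22.7%) differed in the same direction after PI, 112 (31.7%) in the opposite one and 161 (45.6%) did not pass the test. Of the 622 called higher in TAg, 247 (39.7%) differed in the same direction after PI, 117 (18.8%) in the opposite one and 258 (41.5%) did not pass. Over all tested genes 18.2% were higher and 19.7% lower after PI. PI stimulation was given in culture, and the libraries of the conditions also differed in Y-linked reads, which came to 5599 to 11652 in every PI library, to as many as 6563 in T0 and 5111 in TAg, where libraries were mixed, and to at most 15 in every N0 and NAg library. The sex of the mice and culture therefore cannot be told apart from the stimulus when gaps are compared between conditions, while within the TPI and NPI comparison all libraries were alike in this.

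The gap itself was tested for a difference between conditions. Against rest it was higher after PI for 2187 genes (12.7% of those tested) and lower for 1297 (7.52%), and against peptide for 2968 (17.2%) and 3443 (20.0%). Of the genes called higher in TPI, 254 (43.6%) had a wider gap than at rest and 9 a narrower one, and 334 (57.3%) a wider and 18 a narrower gap than after peptide. Of those lower 239 (62.4%) were wider and 0 narrower than at rest, and 288 (75.2%) wider and 5 narrower than after peptide. These genes were chosen for a large gap after PI, which favours wider over narrower, so the counts are a description. *Il10* had the same order of gap in all conditions, 5.43 at rest and 5.39 after peptide, and the differences from the gap after PI did not pass (adjusted p = 0.834 and 0.427). The gap of *Lag3* after peptide was 4.28 (adjusted p of the difference 0.986). Some genes had a wider gap after PI than after peptide. *Pdcd1* had 1.47 at rest and 0.19 after peptide, where the difference did not pass (adjusted p = 0.402), and its gap after PI was wider than that after peptide (adjusted p = 5.41e-06). *Spry1* likewise had 3.45 at rest, 0.13 after peptide and 3.26 after PI (PI against peptide, adjusted p = 2.43e-05).

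Several genes, named here for that reason, had gaps of opposite sign after peptide and after PI. *Fosl2* had −1.80 after peptide and 1.96 after PI, with 1.10 at rest. *Nr4a3* had −2.22 and 1.20, *Nr4a2* −2.42 and 0.84 (difference adjusted p = 5.09e-16), and *Il2* −2.63 and 0.97 (adjusted p = 1.92e-06). The NF-kB subunits were among these, as *Nfkb1* had −1.58 after peptide, *Nfkb2* −0.81 (adjusted p = 4.96e-12) and *Relb* −0.17 (adjusted p = 4.75e-10, though its gap after peptide alone had an adjusted p of 0.106). *Cd40lg*, which did not pass after PI, had −4.82 after peptide and −1.25 at rest (adjusted p of the difference 3.12e-11 and 0.000175). Of genes lower in TPI, 3 naive genes named here because their sign was opposite were higher in TAg than in NAg, where *S1pr1* had 1.07 after peptide, *Klf2* 1.27 and *Tcf7* 0.70 (adjusted p = 4.42e-10). So were *Il16* (1.44) and *Rgs14* (1.57).

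**Figure D5:**
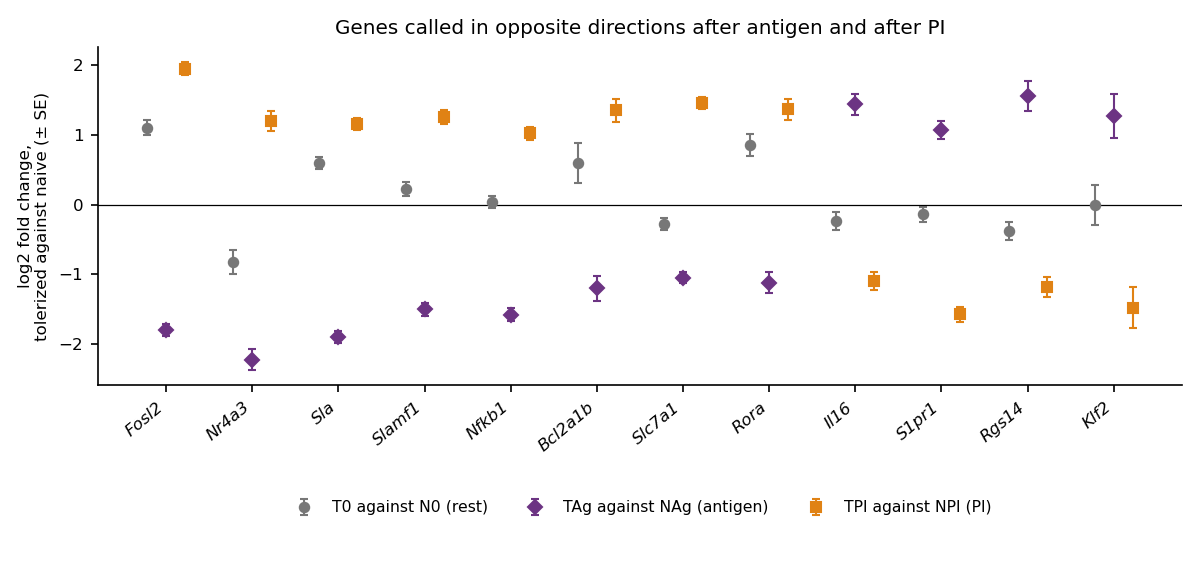
Log2 gap between tolerized and naive cells (tolerized over naive, vertical, bars are SE) of 12 genes at rest, after peptide in the animal (Ag) and after PI. The genes were taken because they were called in opposite directions after Ag and PI, so that the sign is no finding, and *Fosl2* has the widest span, from −1.80 after Ag to 1.96 after PI.

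Some genes were called after PI alone, with a gap that differed from both others: 185 of the 583 higher (31.7%) and 185 of the 383 lower (48.3%). The largest such falls in named protein-coding genes were *G0s2*, *Prrg1* (−2.19, adjusted p = 2.83e-08), the zinc finger gene *Zfp354c* (−2.11, adjusted p = 1.14e-07) and *Pik3ip1*, an inhibitor of PI3 kinase (−1.94, adjusted p = 2.33e-05). *Pik3ip1* was at 924, 829 and 931 in NPI and 193, 261 and 248 in TPI, with the groups far apart. Such rises included *Fam43a* (2.26, adjusted p = 3.74e-06, with 1.46 and 0.0584 in the fit with marker scores) and the non-coding *Gm11745* (2.67), and copies of the 7SK and 5S RNA genes that also met the rule are multi-copy and their counts uncertain. Of the other members of the lists, *Tnfrsf4* had gaps of 0.39 at rest and 0.99 after peptide, both narrower than after PI (adjusted p = 6.68e-05 and 0.000279), and *Irf1* had −0.19 and 0.35 (adjusted p = 6.1e-07 and 4.16e-10). *Ubash3b* had 1.08 at rest and 0.00 after peptide (adjusted p = 0.000514 and 1.12e-07), and *Adora2a* 0.74 and 0.60 (adjusted p = 0.000184 and 1.67e-05).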

How the data were processed

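Libraries from 18 samples in 6 groups were assigned by their labels, and 6 of them (TPI and NPI) make the comparison. Per the labels and the methods of the study, the authors aligned paired-end reads to mm9 with TopHat2 2.1.1 and deposited raw read counts per Ensembl gene from HTSeq 0.9.1 (versions from the submitters' processing notes, which also name DESeq2 1.18 and edgeR 3.24); the strand and overlap settings are not given in the sources used here. Reads from shared or multi-copy genes may therefore have been split or dropped. The file lists 37991 genes, 24647 with a read.

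Counts were scaled by TMM and tested with edgeR 4.0.16 (R 4.3.3, limma 3.58.1) in a robust quasi-likelihood model of all 6 groups, on the 17240 genes whose normalized counts averaged 3 or more in some group, with Benjamini-Hochberg adjustment. The script was tested on simulated data. Differences of gaps were contrasts of the same model. Each SE is the absolute log2 fold change over the square root of F. The members and gene lists were chosen with earlier results of these data known. Any list member could be named, beginning in each list with up to 4 of largest absolute log2 fold change among those past the threshold and above an average of 50; outside the lists the 10 largest rises and falls without overlap were named, and the 6 largest each way called after PI alone with a gap differing from both others. Where the file has *4632428N05Rik* and *Folr4*, the list names are *Vsir* and *Izumo1r*. List members *Il9*, *Il24*, *Rcan2*, *Ascl2*, *Cxcl13*, *Hrk* and *Vpreb3* were too low to test, and *Tnfsf12* was not matched to a gene of the file. Alternatives were DESeq2 1.42.0, its size factors, the combination of tools that the study used, no filter, no minimum average, a test against 2-fold, only the groups compared, the replicate number as a block, the marker scores as covariates and leaving out each library. Promoter sequences are from RefSeq (GRCm38.p6) and matched 430 of 590 named symbols. Results that need certain genes are not reported here. Gene positions are from the mm9 annotation. Python 3.11.15, pandas 2.3.3, numpy 2.4.6 and matplotlib 3.10.9 were used.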

Additional observations from a re-analysis of the deposited data

Results flagged for a closer look

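The difference between tolerized and naive cells was tested for a change with the condition, and the counts below are of genes that passed that test at an adjusted p below 0.05 (edgeR's quasi-likelihood test). The gap after PI was above the gap at rest for 2187 genes and below it for 1297, and it was above the gap after Ag for 2968 genes and below it for 3443. The genes named here were chosen because they were called in opposite directions after PI and after Ag, which fixes that their gaps differ, so their values are a description. For *Fosl2* the log2 gap after PI exceeded that after Ag by 3.75, for *Nr4a3* by 3.43 and for the adaptor *Sla* by 3.06. It exceeded it for *Slamf1* by 2.76, for *Nfkb1* by 2.60, for *Bcl2a1b* by 2.56, for *Slc7a1* by 2.51 and for *Rora* by 2.49. The difference was negative, with TPI below NPI and TAg above NAg, for *Klf2* at −2.75, for *Rgs14* at −2.75, for *S1pr1* at −2.65 and for *Il16* at −2.53. Culture and the sex of the mice differed along with the stimulus, and their part in these differences was not tested.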

How the results depend on the processing

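Genes called higher and lower in TPI numbered 583 and 383, and 607 and 370 with DESeq2, 605 and 370 with the combination of tools of the study, 602 and 366 with DESeq2 size factors, 581 and 381 without a filter and 625 and 374 with only the groups compared. They numbered 238 and 89 when tested against a 2-fold change and 908 and 702 without a minimum average count. Leaving out a library gave 538 to 632 and 347 to 434. By adjusted p alone, 1383 and 933 differed with the marker scores as covariates, against 3138 and 3399. With only the groups compared 3650 and 3481 differed, and 54 named genes gained the threshold and 8 lost it. The gap after PI was lower than at rest for 1297 genes, and for 2070 with only the groups compared; the cause was not tested.

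The replicate numbers were not taken as pairs, and correlations this small cannot settle whether they pair the samples. Deviations of same-numbered TPI and NPI libraries correlated at 0.237, 0.088 and −0.0105. The value of 0.237, for replicates 1, was the largest of any TPI and NPI library, while TPI replicates 2 and 3 correlated best with NPI replicates 3 and 2. With the number as a block 581 and 383 genes were called. Of 359 named genes past the threshold, 71 lost it on leaving out a library and 0 turned in direction. With the marker scores as covariates 405 of the 592 named genes stayed on the same side of the threshold. Some of these passed in neither fit and turned in sign, such as *Ifng* (0.74 without and −0.35 with the scores). A further 158 kept their sign and lost the threshold, and 14 kept their sign and gained it. The other 15 turned and passed in at least 1 of the fits: *Areg* −0.55, *Lif* −0.10, *Il10rb* −0.026, *Lat* 0.011, *Vav1* 0.003, *Prkcq* 0.078, *Oas1a* −0.238, *Selplg* −0.032, *Ly6c2* −0.374, *Anxa1* −1.461, *Lgals1* −0.074, *Lgals3* −0.092, *P2rx7* −0.23, *Ighm* −1.592 and *Cd14* −0.525 (log2, with the scores). As depth is lower in NPI, a gene absent from NPI is known only to be below 3 reads per library.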

Other observations

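Markers of other spleen cells that belong to no comparison above are given as values. MHC class II genes, which B cells and other antigen-presenting cells carry, summed to 5878 to 11638 in NPI and 6393 to 12687 in TPI, and 0 of 9 passed the threshold in either direction. The same held for 0 of 11 B cell markers and for 0 of 8 dendritic cell markers. Platelet and megakaryocyte markers summed to 72.2 to 86.9 in NPI and 99.5 to 108.7 in TPI, with 0 of 7 past the threshold. Of 13 erythroid markers 0 were higher and *Gata1* was lower, a difference lost without TPI replicate 1 or 2 or any of the NPI replicates, while their median log2 fold change was 2.66 and TPI lay fully above NPI for 9. Among them was *Slc4a1*, the anion exchanger of red cells, at 2.08, 4.40 and 0.849 in NPI and 59.8, 51.6 and 70.4 in TPI (adjusted p = 0.118). Of 8 CD8 and NK markers 0 were higher and 2 lower. All of these tests were edgeR's quasi-likelihood test.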
